A study of Xenopus laevis with 16 samples.

Results

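The genes described here drive and restrain the cell cycle: cyclins, cyclin-dependent kinases (CDKs) and their inhibitors, E2F and pocket proteins, the replication licensing factors, and the kinases and phosphatases of mitotic entry and exit. Members were chosen by gene symbol from the array's annotation. The rule used no measured value, though it was set with earlier results of these data known. Members comprised 155 probe sets of 124 genes (90 names once the copy suffixes .L and .S are dropped) among 32539 probe sets tested (of 11303 genes with a symbol). Symbols that start with ccna, ccnb, ccnd or ccne, cdk, cdkn, cdc, mcm, orc or e2f were taken, together with rb1, rbl1, rbl2, wee1, plk1, aurka, aurkb and pcna, and the GTPase gene cdc42 itself was left out. No probe set with 1 symbol carried the name rb1 or rbl2. Because the choice rests on how a name begins, 57 of the 155 probe sets belong to genes with other or mainly other roles, and 12 of these are named after cdc42; the remaining 98, of 83 genes, belong to the core machinery.

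RNA was measured on Affymetrix arrays in Xenopus laevis animal caps, explants of blastula ectoderm, to find targets of the neural border factors Pax3 and Zic1. There were 5 groups of 3 biological samples. Control caps carried no construct and saw no dexamethasone and no cycloheximide. Pax3 caps carried hormone-inducible Pax3-GR, injected at the stage of 2 to 4 cells, and Pax3 and Zic1 caps carried Pax3-GR and Zic1-GR. Both kinds were cut at stage 9, received dexamethasone from stage 10.5 for 2 h, and were lysed at stage 11.5 to 12. The sample titles give stage 12 for every group, control caps included. The other 2 groups were the same injected caps given cycloheximide, an inhibitor of translation, at 0.1 mg/ml from 30 min before the hormone, and kept in it with the hormone. No group here had the drug, the hormone or an injection alone, so every drug-treated sample also carried active Pax3, and a comparison of injected caps with control caps holds injection and hormone as well as the factors.

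The cell cycle advances as cyclins accumulate, activate their CDK partners and are destroyed. D and E cyclins with CDK4, CDK6 and CDK2 act before DNA replication, and E2F factors, held in check by pocket proteins, drive transcription of replication genes. Replication origins are licensed when ORC and Cdc6 load the MCM helicase, and the kinase Cdc7 with Cdc45 then fires them. Cyclin A and B with CDK1 drive mitosis, opposed by Wee1 and promoted by Cdc25 phosphatases. Early frog embryos cleave on maternal stores without gap phases, and the cycle lengthens and gains gap phases around gastrulation, the period sampled here. Cycloheximide keeps cells from making cyclins anew.

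The array means lay between 4.96 and 4.99 on the log2 scale, and the 155 probe sets had means from 1.73 to 11.36, with a median of 7.29 against 4.90 for all probe sets. A total of 40 of the 155 lay under the median probe set. Of 14 markers of gastrula ectoderm and epidermis, 11 were measured, with a median of 9.83, while 10 mesoderm markers had a median of 3.15 and 10 endoderm markers one of 5.01. In the text below, a probe set passed when its adjusted p was under 0.05 in limma over all 32539 probe sets. Counts at an unadjusted p under 0.05 are given without the share of all probe sets, and nothing is concluded from them. Samples with the same replicate number deviated together in all 5 groups, so the result with the replicate number as a block (a term for each number) is given beside the counts and calls that it changes. Each standard error (SE) is that of the fit without the block, also where the adjusted p is from the fit with it. The third Pax3 and Zic1 sample without drug stood apart: its mean correlation with the other samples of its number was 0.471, against 0.648 to 0.792 for the other 14 samples.

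More cell cycle genes passed for cycloheximide than for the injected factors, and so did more of all probe sets. In limma 2216 of all probe sets passed for the drug averaged over both kinds of injected caps. Against control caps 93 passed for Pax3 and 160 for Pax3 and Zic1, and 6 passed for Zic1 added to Pax3. The average draws on more samples than each factor comparison, so its SE is smaller. Averaged over both kinds of injected caps, several genes that start DNA replication or restrain the cycle were higher with the drug, led by cdkn1a.L, which encodes the CDK inhibitor p21, at 4.06-fold, the pocket protein gene rbl1.L at 4.01-fold and the cyclin E gene ccne2.L at 3.33-fold. Both copies of cdk1, the mitotic kinase, and the B-type cyclin gene ccnb3.L were lower. In limma, 19 members rose and 4 fell, which is 14.8% of the 155, beside 6.81% of all probe sets (3.29% higher and 3.53% lower). With the replicate block, 59 rose and 20 fell, or 51.0%, beside 29.1% of all (13.5% higher and 15.6% lower). The median member change was 0.18 on the log2 scale, and 97 of the 155 changes lay above 0. The median of all probe sets was -0.04, so most of their changes lay below 0. Without the Pax3 and Zic1 sample that stood apart, 14 members passed in limma and 80 with the block, beside 1584 and 10172 of all probe sets. In limma the total of 23 was also lower by over 1.5 times without Pax3 sample 2 or 3 (14 and 12), Pax3 and Zic1 sample 2 (12), drug-treated Pax3 sample 1 or 2 (13 and 15) or drug-treated Pax3 and Zic1 sample 1 or 3 (14 and 13). The count of all probe sets that passed fell alongside, from 2216 to between 1363 and 1638 in these fits. The calls for cdkn1a.L, rbl1.L, ccne2.L, e2f7.L, cdc7.L, both copies of cdk1 and ccnb3.L held with each of the 15 samples left out, while those for ccna2.S, cdc45.L, mcm10.L and cdk17.S were lost in 12, 11, 10 and 9 of 15. Those for ccna2.L and ccnd1.S were lost in 8, those for cdc6.L, cdc25a.L, cdc45.S, pcna.S and 1 probe set of cdk5rap1.L in 7, and that for cdc123.S in 5. Since caps were measured whole, fewer cells of a type and less RNA per cell cannot be told apart.

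**Figure D1:**
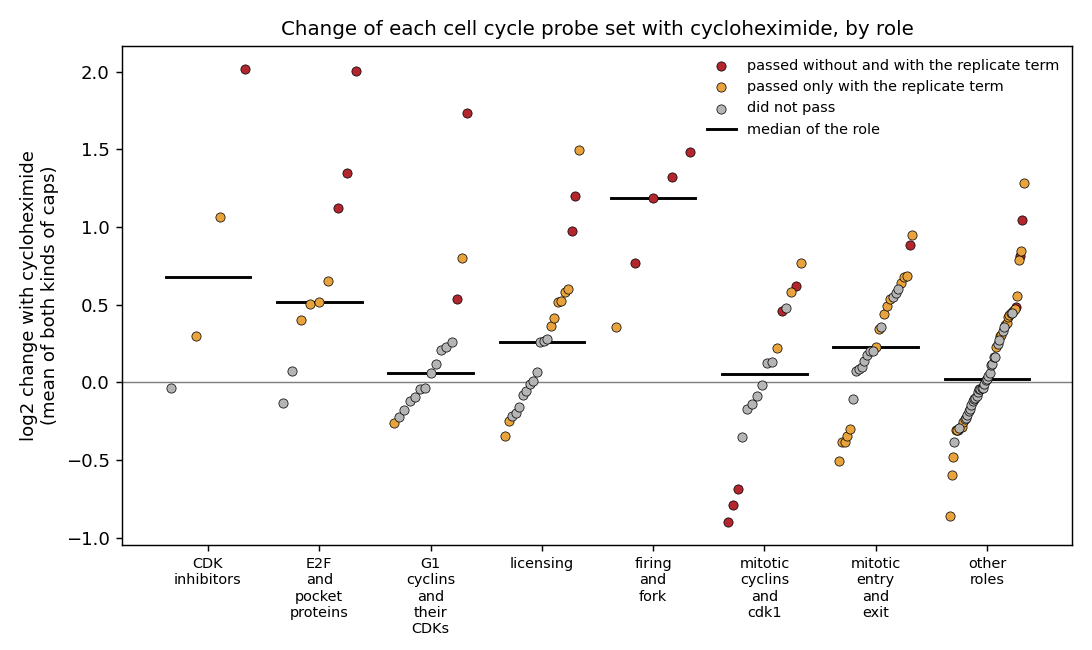
Log2 change with cycloheximide, averaged over both kinds of injected caps (vertical axis), for each of the 155 cell cycle probe sets, arranged by role (horizontal axis). Points are probe sets, coloured by whether they passed in limma without and with the replicate block, and the bar is the role's median; all 5 firing and fork probe sets lie above 0, while the mitotic cyclins and cdk1 hold both rises and the 3 deepest falls of the core roles.

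Among the CDK inhibitors, cdkn1a.L was measured at 6.21, 5.74 and 5.62 in Pax3 caps and at 6.08, 5.86 and 5.19 when Zic1 was injected as well. With cycloheximide its values were 7.30, 6.44 and 8.26 in Pax3 caps and 7.66, 8.62 and 8.54 in Pax3 and Zic1 caps. All 6 drug samples lay above all 6 samples without it, and the control caps, at 5.83, 5.30 and 5.58, lay within the range of the latter. The mean change was 2.02 (SE 0.29, adjusted p = 0.00167 in limma). Its rise in Pax3 caps alone, 1.47 (SE 0.41), passed only with the block (limma, adjusted p = 0.159 without and 0.0433 with it). The other 3 inhibitors had means under the median probe set: cdkn2b.L and cdkn2d.S, of the family that binds CDK4 and CDK6, changed by 1.07 and 0.30 and passed only with the block, and cdkn1b.S, which encodes p27, changed by -0.04 and did not pass.

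Of the 9 probe sets of pocket protein and E2F genes, 3 rose in limma and 7 with the block, and none fell in either fit. Of all probe sets, 6.81% passed in limma and 29.1% with the block, and these shares also apply to the counts by role below. The gene rbl1.L encodes p107, which binds E2F factors and represses their targets; its probe set Xl2.47765.1.A1_at read 6.11, 6.17 and 6.24 in Pax3 caps and 6.40, 6.46 and 6.03 in Pax3 and Zic1 caps. With the drug it read 8.03, 7.59 and 8.47, and 8.31, 8.28 and 8.71. The groups did not overlap, and the change of 2.00 (SE 0.15, adjusted p = 3.7e-05 in limma) had the smallest p of the 155. A second probe set of the same gene, Xl2.9618.1.S1_at, gave a smaller change of 0.52 (SE 0.19), which passed only with the block (limma, adjusted p = 0.00126). Both probe sets of e2f7.L, an atypical E2F that represses transcription, rose, by 1.35 (SE 0.22) and 1.12 (SE 0.19). The activator e2f1.L, with changes of 0.65 and 0.40 at its 2 probe sets, and e2f4.S, with 0.51, passed only with the block. The values for e2f3.S, -0.13, and for e2f8.L, 0.07, did not pass.

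Among the genes of the G1 and S cyclins and their kinases, ccne2.L stood out. It was measured at 6.97, 7.23 and 6.70 in Pax3 caps and 7.28, 7.04 and 6.33 in Pax3 and Zic1 caps, and with cycloheximide at 8.96, 8.09 and 8.82, and 8.73, 8.41 and 8.96. Every drug sample exceeded every sample without it, controls included, and the change was 1.74 (SE 0.19, adjusted p = 0.000308 in limma). Its copy ccne2.S changed by 0.80 (SE 0.29) and passed only with the block (limma, adjusted p = 0.0237). The second cyclin E gene did not follow: ccne1.L changed by -0.22 and 0.06 at its 2 probe sets and ccne1.S by 0.26, and none of these passed in either fit. Of the kinases of this phase, cdk2.S fell by 0.26, only with the block (limma, adjusted p = 0.0376), and cdk2.L at -0.09, cdk6.L at -0.04 and cdk4.S at 0.12 and -0.18 did not pass. Of the 15 probe sets, ccne2.L and ccnd1.S rose in limma, the role's median change was 0.06, and with the block 3 rose and 1 fell. Beside these counts, 6.81% of all probe sets passed in limma and 29.1% with the block.

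Of the 5 probe sets of origin firing and the replication fork, 4 rose in limma and all 5 with the block, with a median change of 1.19. The kinase gene cdc7.L went from 3.71, 4.45 and 3.63 in Pax3 caps and 3.58, 4.07 and 2.77 in Pax3 and Zic1 caps to 5.29, 5.37 and 5.04, and 5.35, 4.90 and 5.16, with the drug. These groups did not overlap, and the change was 1.49 (SE 0.24, adjusted p = 0.00332 in limma). Every injected sample without the drug lay under 4.90, the median of all probe sets. For cdc45.L, whose product joins the MCM helicase at firing, the values were 8.20, 7.48 and 7.06 in Pax3 caps, 8.13, 7.30 and 6.49 with Zic1 as well, and 9.14, 8.56 and 8.25, and 9.34, 8.17 and 8.33, with the drug. Here the groups overlapped over all samples, since replicate 1 was high throughout, but within each replicate number the drug sample was higher. The change was 1.19 (SE 0.32, adjusted p = 0.0472 in limma and 8.11e-05 with the block), and the copy cdc45.S, whose mean of 3.26 lay under the median probe set, gave 1.32 (SE 0.32, adjusted p = 0.0289 in limma). The sliding clamp gene pcna.S rose by 0.77 (SE 0.19, adjusted p = 0.0324 in limma), and pcna.L changed by 0.35 (SE 0.22), which passed only with the block (limma, adjusted p = 0.0362).

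**Figure D2:**
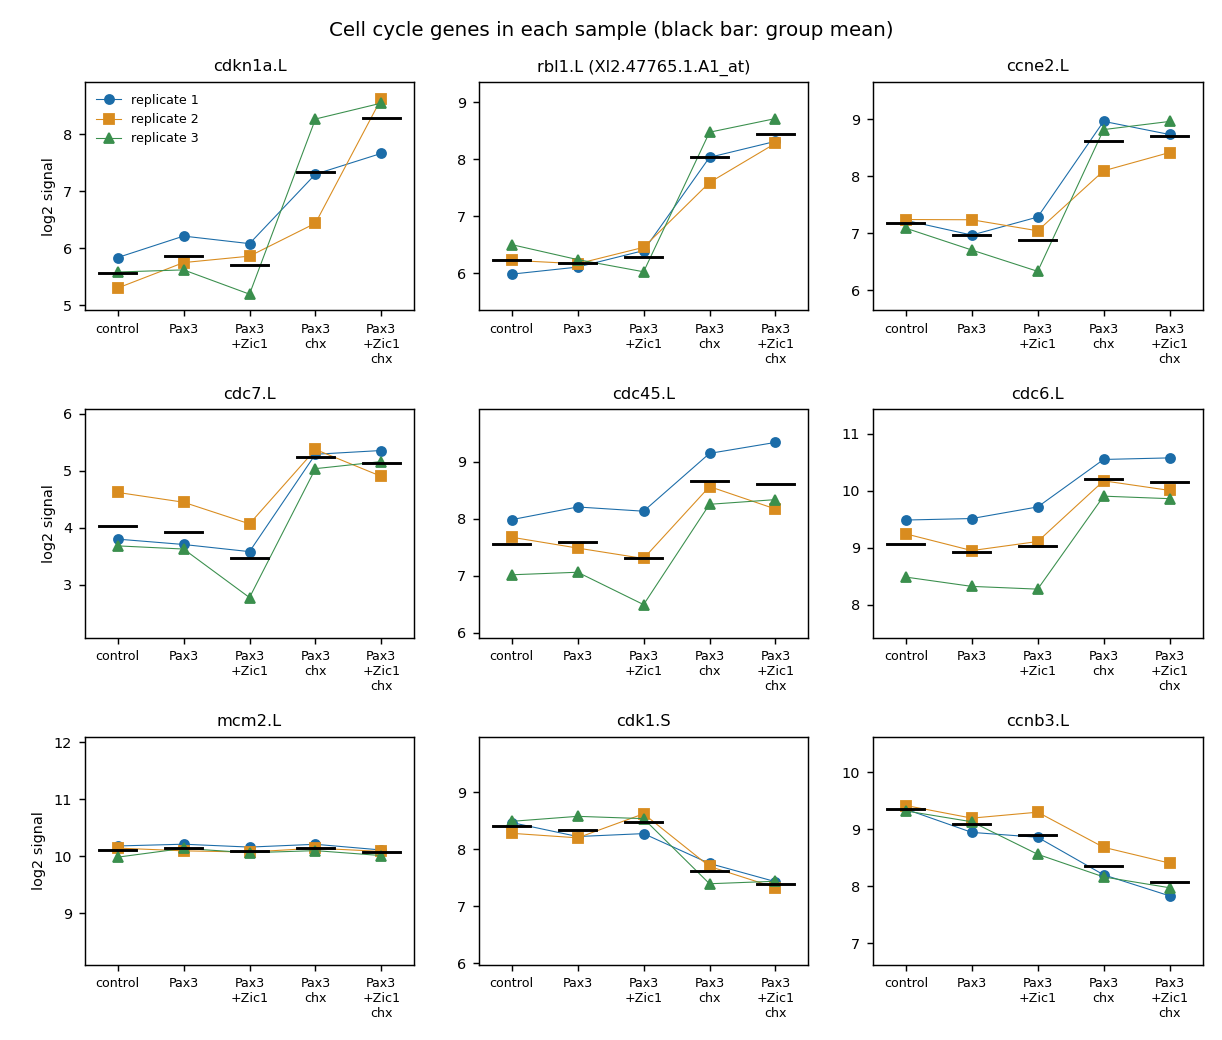
Log2 signal (vertical axis, every panel spanning 4 units) of 9 cell cycle genes in each of the 15 samples, by group (horizontal axis), with the 3 replicate numbers as separate symbols joined by thin lines and group means as bars. The upper 6 genes are higher in all drug samples than in the same-numbered samples without the drug, mcm2.L stays between 9.98 and 10.21 in all samples, and cdk1.S and ccnb3.L are lower with the drug.

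Licensing genes did not move as one. For cdc6.L, which loads the MCM ring, the values were 9.51, 8.95 and 8.32 in Pax3 caps, 9.71, 9.11 and 8.27 with Zic1 as well, and 10.55, 10.17 and 9.90, and 10.57, 10.00 and 9.86, with the drug. No drug sample was as low as any sample without it, and the change was 1.20 (SE 0.28, adjusted p = 0.0252 in limma). Its copy cdc6.S changed by 1.50 (SE 0.49), which passed only with the block (limma, adjusted p = 0.0891 without and 0.00247 with it), and mcm10.L, an initiation factor that is no part of the helicase ring, rose by 0.98 (SE 0.26, adjusted p = 0.0396 in limma). The genes orc1.L (0.58) and orc6.L (0.60) of the origin recognition complex rose only with the block, while orc3.S (-0.34) fell only with it, and orc2.S, orc4.L and orc5.L, at -0.20, -0.16 and 0.07, did not pass.

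The MCM2 to MCM7 subunits form the ring that unwinds DNA, and none of their probe sets passed in limma without the block. The reading of mcm2.L was 10.21, 10.09 and 10.13 in Pax3 caps, 10.16, 10.07 and 10.06 with Zic1 as well, and 10.21, 10.14 and 10.10, and 10.11, 10.08 and 10.01, with the drug. These values overlapped, the change was -0.01 (SE 0.07), and it did not pass. Nor did mcm3.L at 0.26, mcm6.L at -0.08, the 2 copies of mcm6.2 at 0.01 and 0.26, or mcm7.L and mcm7.S at -0.06 and -0.22. The copies mcm4.L and mcm4.S, both at 0.52, and mcm5.L, at 0.36, rose only with the block (limma, adjusted p = 0.0012, 0.0214 and 0.00603), and mcm5.S, at 0.28, did not pass. Outside the ring, mcm9.L rose by 0.41 and mcm8.L fell by 0.25, both only with the block. In all, 2 of 22 licensing probe sets rose and none fell in limma, beside 6.81% of all probe sets, with 8 at an unadjusted p under 0.05. The share of all probe sets at that unadjusted p is not given, and nothing is concluded from the 8. With the block 9 rose and 2 fell, beside 29.1% of all.

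Mitotic genes went both ways. The copy cdk1.S, which encodes the kinase that starts mitosis, was measured at 8.22, 8.20 and 8.57 in Pax3 caps and 8.27, 8.62 and 8.53 when Zic1 was present. With the drug it read 7.75, 7.70 and 7.39, and 7.43, 7.32 and 7.44. All 6 drug samples were below all 9 others, and the change was -0.90 (SE 0.10, adjusted p = 0.000348 in limma), or 1.86-fold lower. The copy cdk1.L was measured at 8.22, 8.33 and 8.39 and at 8.21, 8.79 and 8.73 without the drug, and at 8.08, 7.89 and 7.49 and at 7.73, 7.79 and 7.57 with it. It changed by -0.69 (SE 0.12, adjusted p = 0.00609 in limma), and again the drug samples did not overlap the others.

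For ccnb3.L, a B-type cyclin gene, the values were 8.95, 9.20 and 9.13 in Pax3 caps and 8.86, 9.30 and 8.56 in Pax3 and Zic1 caps, and 8.20, 8.68 and 8.16, and 7.83, 8.41 and 7.97, with the drug. Only the second Pax3 drug sample, 8.68, reached into the range without the drug, and the change was -0.79 (SE 0.15, adjusted p = 0.00728 in limma). The 2 probe sets of ccnb3.S gave -0.35 and -0.17 and did not pass. Both copies of the cyclin A gene ccna2 went the other way: ccna2.L rose by 0.46 (SE 0.11, adjusted p = 0.0257 in limma) and ccna2.S by 0.62 (SE 0.16, adjusted p = 0.0409 in limma). These calls were lost in 8 and 12 of the 15 fits with a sample left out and passed with the block (limma, adjusted p = 0.00214 and 0.00254). Of the other cyclin A gene, ccna1.L rose by 0.58 only with the block. The copy ccna1.S, at 0.48, and the probe set named ccna1 without a suffix passed in neither fit. The other B cyclins did not pass in limma without the block: 0.13 and -0.14 at the 2 probe sets of ccnb2.L, -0.02 for ccnb2.S and -0.09 for ccnb1.2.S did not pass in either fit, while ccnb1.S, at 0.77, and ccnb1.2.L, at 0.22, passed only with the block.

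Among the regulators of mitotic entry and exit, 1 of 27 probe sets passed in limma, beside 6.81% of all probe sets, with 8 at an unadjusted p under 0.05. Nothing is concluded from these 8, as the share of all probe sets at that p is not given. With the block 10 rose and 5 fell, beside 29.1% of all. The probe set that passed in limma, that of the phosphatase gene cdc25a.L, read 9.73, 9.21 and 8.99 in Pax3 caps, 9.68, 9.11 and 8.73 with Zic1 as well, and 10.49, 10.24 and 9.82, and 10.61, 9.81 and 9.79, with the drug. No drug sample was as low as the highest sample without it, and the change was 0.88 (SE 0.22, adjusted p = 0.0312 in limma and 2.99e-05 with the block). The brightest of 3 probe sets of cdc25a.S gave 0.95 and passed only with the block. The genes cdc25b.L and cdc25c.L, with changes from 0.09 to 0.60, did not pass. All 3 probe sets of wee1, whose product inhibits CDK1, rose only with the block, by 0.54 for wee1.L and by 0.68 at both probe sets of wee1.S. Both probe sets of plk1.S, the polo kinase of mitosis, fell only with the block, by 0.51 and 0.35, and so did aurka.L, by 0.38, while aurka.S, at 0.14, did not pass. Of the genes of the anaphase-promoting complex and its activator, cdc16.L (0.34) and cdc20.S (0.23) rose and cdc23.L (-0.30) fell, each only with the block, and cdc20.L, cdc23.S and cdc27.S did not pass.

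Of the 57 probe sets of genes with other or mainly other roles, 4 rose and 1 fell in limma, beside 6.81% of all probe sets. With the block 17 rose and 9 fell, beside 29.1% of all, and the median change was 0.02. Both probe sets of cdk5rap1.L, which encodes a tRNA-modifying enzyme, rose, by 1.05 and 0.81, cdkn2aip.L, whose product binds the ARF tumour suppressor, rose by 0.46, and 1 of 2 probe sets of the kinase gene cdk17.S rose by 0.48, the other passing only with the block. The faller was cdc123.S, an assembly factor of translation initiation factor eIF2, with a change of -0.31 (SE 0.07, adjusted p = 0.0224 in limma). The largest change in this class passed only with the block: cdc42se2.S, named as a small effector of Cdc42, read 6.81, 6.89 and 5.15 in Pax3 caps and 6.57, 6.64 and 4.19 with Zic1 as well, against 7.67, 7.94 and 6.59, and 7.74, 7.54 and 6.47, with the drug. The groups overlapped, each drug sample was above the sample of its number without the drug, and the change was 1.28 (SE 0.51; limma, adjusted p = 0.167 without and 0.000183 with the block). Also only with the block, its copy cdc42se2.L rose by 0.84, the Cdc42 effector gene cdc42ep3.L rose by 0.79 and cdc42se2l.S fell by 0.86. Likewise 1 probe set each of cdk7.L and cdk9.L rose, by 0.30 and 0.44, and 1 of cdc34.L fell by 0.48. The other probe sets of these genes did not pass in either fit. In the cdk9.L probe set that rose, the replicate number accounted for 98.2% of the variance and the group for 1.23%.

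Most members changed in the same direction in both kinds of caps, which share no samples. In Pax3 caps, 2 members rose and 1 fell in limma, 1.94% of the 155 beside 0.87% of all probe sets (0.504% higher and 0.366% lower), and 28 rose and 6 fell with the block, 21.9% beside 10.5% (5.46% and 5.02%). In Pax3 and Zic1 caps, 6 rose and 2 fell in limma, 5.16% beside 1.59% (0.842% and 0.747%), and 35 rose and 9 fell with the block, 28.4% beside 16.4% (7.98% and 8.45%). In limma the first count, 3, was 1 without Pax3 sample 1 or 3 or drug-treated Pax3 sample 1 or 3, and 5 without Pax3 and Zic1 sample 3. The second, 8, was 4 without Pax3 and Zic1 sample 3 or drug-treated Pax3 and Zic1 sample 2 or 3. The counts of all probe sets moved alongside. In Pax3 caps 283 passed in full, 89 to 136 in the fits with 1 member and 363 in that with 5. In Pax3 and Zic1 caps 517 passed in full and 201 to 351 in the fits with 4. The 3 that passed in Pax3 caps were rbl1.L (1.86), ccne2.L (1.66) and cdk1.S (-0.72), and in Pax3 and Zic1 caps their changes were 2.14, 1.82 and -1.08. With the block, 24 rises were shared, which is 85.7% of those in Pax3 caps and 68.6% of those in Pax3 and Zic1 caps, and 4 falls, 66.7% and 44.4%. Over the 155 probe sets the changes had the same sign in 137, and Pearson's r was 0.91 and Spearman's rho 0.91, a description across probe sets that share their arrays and are not independent. The agreement and the shared calls were computed for members only, so whether they differ from those of probe sets at large was not tested. The change of cdkn1a.L was larger by 1.09 (SE 0.58) with Zic1, but the interaction did not pass. In limma no member and no probe set at all (0%) passed for the interaction without or with the block, and 0 and 3 members had an unadjusted p under 0.05. For the latter counts the share of all probe sets is not given, and nothing is concluded from them.

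**Figure D3:**
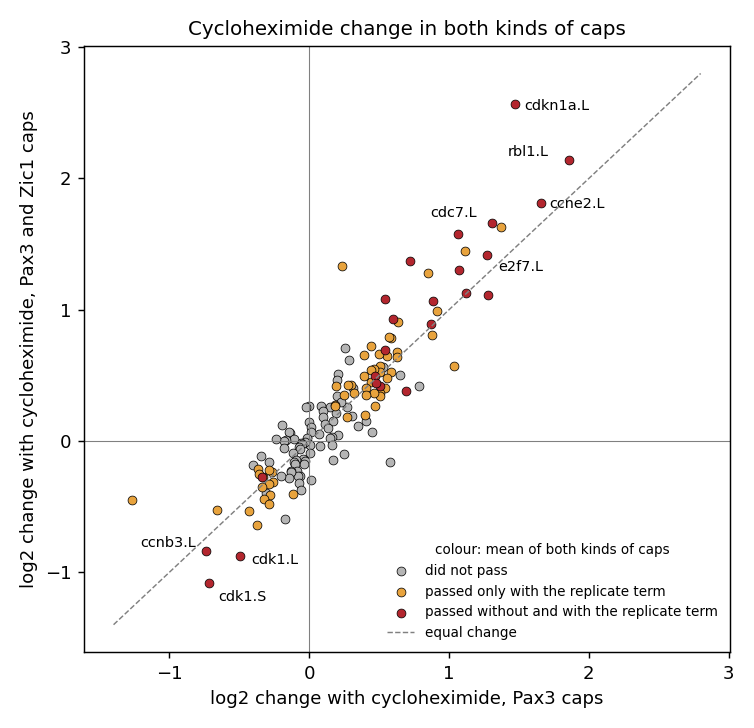
Log2 change with cycloheximide of each of the 155 probe sets in Pax3 caps (horizontal axis) and in caps with Pax3 plus Zic1 (vertical axis), coloured by the test of their mean; the dashed line marks equal change. Most points lie near the line, cdkn1a.L lies above it at 1.47 and 2.57, and cdk1.S lies below 0 on both axes at -0.72 and -1.08.

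Among genes of the same pathway that the name rule did not take, the counts differed by class, beside 6.81% of all probe sets in limma and 29.1% with the block. Of 45 probe sets of other replication genes, 9 rose and none fell in limma, 20.0%, and 19 rose and 3 fell with the block, 48.9%, with a median change of 0.18. They included all 3 probe sets of rpa2.S, a subunit of the single-strand binding protein, at 1.15 to 1.53, 1 of 3 probe sets of cdt1.L, which loads MCM with Cdc6, at 1.05, and gmnn.L, the inhibitor of Cdt1, at 0.90. Of 36 probe sets of checkpoint and growth arrest genes, 8 rose and 3 fell in limma, 30.6%, and 16 rose and 4 fell with the block, 55.6%. The stress-induced gadd45g.L and gadd45g.S had the highest changes, 3.78 (SE 0.34) and 3.63 (SE 0.39), followed by plk2.S at 1.91 and btg4.L at 1.73, while both probe sets of the antiproliferative btg1.L fell, with -1.18 and -0.81. The probe sets of gadd45a.S disagreed, with 1.43, 1.21 and 1.18 at 3 of them and -2.23 at the fourth. Of 91 probe sets of mitosis genes, 3 rose and 2 fell in limma, 5.49%, and 14 rose and 13 fell with the block, 29.7%, shares near those of all probe sets, with a median of -0.01. The gene fbxo5.L, which encodes the inhibitor Emi1 of the anaphase-promoting complex, rose by 0.91, and 1 of 2 probe sets of ube2c.L, a ubiquitin-conjugating enzyme of that complex, fell by 0.59. Of 42 probe sets of growth drive genes, 1 of tfdp2.S, the E2F partner, rose in limma, by 0.67, which is 2.38% of them, and 15 rose and 4 fell with the block, 45.2%.

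Markers of other tissue types also moved with the drug. With the block, 7 of 10 endoderm markers rose and 1 fell (3 and 1 without it), led by sox17b.1.S at 2.59, and their summed linear signal ranged from 440.2 to 983.8 in Pax3 caps against 1258 to 2028 with the drug. In Pax3 and Zic1 caps it ranged from 262.6 to 621.6 against 488.7 to 1188. Of 11 ectoderm and epidermis markers, 4 rose and 5 fell with the block (3 and 3 without it), among the latter the larval keratins krt12.4.L and krt12.5.S at -2.03 and -2.23. Of 7 neural plate markers, 4 rose and 1 fell with the block (1 and 0 without it), and 1 of the 4 is gmnn.S, also a replication gene. Of 10 mesoderm markers, 1 rose in either fit. Beside these counts, 29.1% of all probe sets passed with the block and 6.81% without it. The part of these markers in the cell cycle changes was not tested.

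Without the drug, few members passed for the injected factors, and few of all probe sets did. In Pax3 caps against control caps, none of the 155 passed in limma, beside 0.286% of all probe sets, with 4 at an unadjusted p under 0.05; with the block 1 rose and 2 fell, 1.94% beside 2.14% (0.839% higher and 1.3% lower). In Pax3 and Zic1 caps against control caps, none passed in limma, beside 0.492% of all, with 6 at an unadjusted p under 0.05, and 2 rose with the block, 1.29% beside 4.35% (2.17% higher). Between caps with both factors and Pax3 caps, none passed in limma, beside 0.0184% of all, with 8 at an unadjusted p under 0.05, and 2 rose with the block, 1.29% beside 1.12% (0.759% higher). The shares of all probe sets at an unadjusted p under 0.05 are not given, and nothing is concluded from those counts of members. In these comparisons the median member changes were 0.04, -0.02 and -0.07, and those of all probe sets 0.02, 0.00 and -0.00.

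Of the core genes, the D cyclin gene ccnd1, 1 probe set of wee1.S and pcna.S passed with the block in a comparison without the drug, ccnd1 with the largest changes. D cyclins link growth signals to the entry into S phase. The copy ccnd1.S was measured at 9.28, 9.74 and 9.83 in control caps, 8.41, 8.92 and 8.56 in Pax3 caps and 9.86, 10.04 and 9.80 in Pax3 and Zic1 caps. The Pax3 values lay below both other groups without overlap. The change was -0.99 (SE 0.20) with Pax3 (limma, adjusted p = 0.0731, and 0.0029 with the block) and 1.27 (SE 0.20) when Zic1 was added (limma, adjusted p = 0.0684, and 0.00221 with the block); both use the same Pax3 samples. Between Pax3 and Zic1 caps and control caps it was 0.28 (SE 0.20), which did not pass in either fit.

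The copy ccnd1.L had the same pattern, with 8.88, 9.08 and 9.30 in control caps, 7.72, 8.41 and 7.75 in Pax3 caps and 9.27, 9.43 and 9.55 in Pax3 and Zic1 caps. Its changes were -1.13 (SE 0.30) and 1.46 (SE 0.30), again past the threshold only with the block (limma, adjusted p = 0.0144 and 0.00686). Each was seen in 3 of 3 replicate numbers. With cycloheximide, ccnd1.S read 9.30, 9.60 and 9.07 with Pax3 and 10.07, 10.49 and 10.28 with Pax3 and Zic1, a difference of 0.95 (SE 0.20) without overlap that passed with the block (limma, adjusted p = 0.194 without and 0.00879 with it). For ccnd1.L the corresponding values were 8.03, 8.88 and 8.70, and 8.60, 9.38 and 9.78; these overlapped, and the difference of 0.72 (SE 0.30) did not pass in either fit. The other D cyclin, ccnd2, did not pass in any comparison without the drug: its changes with Pax3 were all under 0.1 in size, with ccnd2.S, for example, at 7.37, 6.85 and 6.93 in Pax3 caps and 7.30, 6.78 and 6.91 in control caps.

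**Figure D4:**
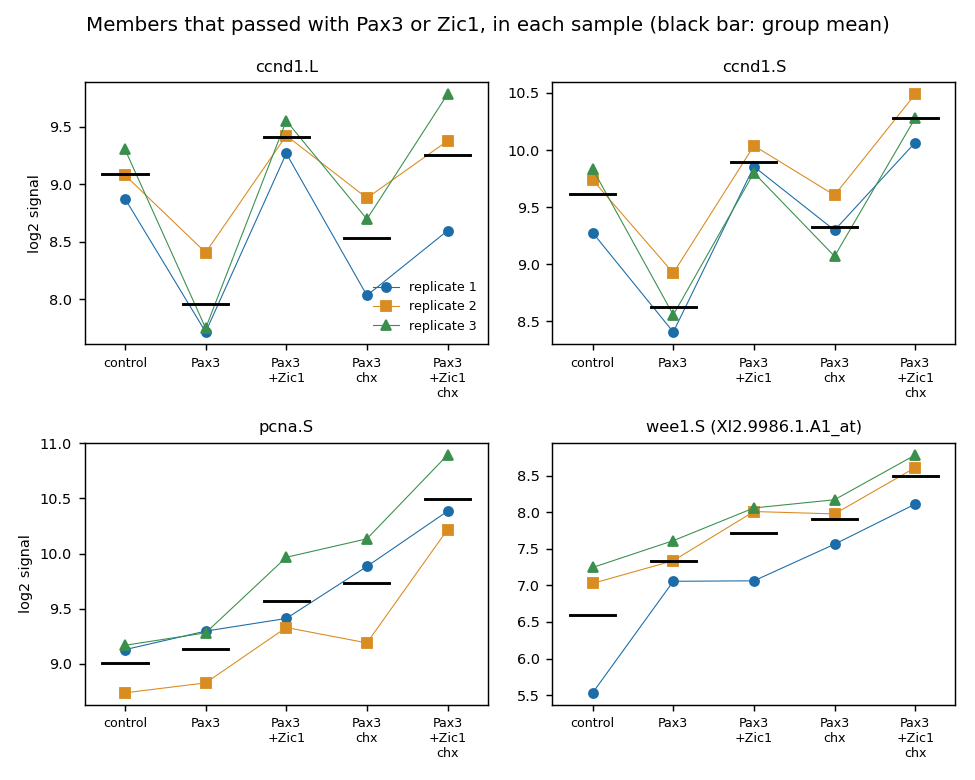
Log2 signal (vertical axes, each with its own range) of ccnd1.L, ccnd1.S, pcna.S and 1 probe set of wee1.S in each sample, by group (horizontal axis), with replicate numbers as separate symbols and group means as bars. Both copies of ccnd1 are lowest in Pax3 caps, and pcna.S is highest in drug-treated Pax3 and Zic1 caps, at 10.22 to 10.89.

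Other members that passed did so only with the block. The probe set Xl2.9986.1.A1_at of wee1.S was measured at 5.53, 7.03 and 7.24 in control caps and 7.06, 8.01 and 8.06 in Pax3 and Zic1 caps. The difference was 1.11 (SE 0.41 without the block), with adjusted p = 0.0113 in limma with the block. The groups overlapped, and the first control sample was the lowest of the 15. Neither the other probe set of wee1.S nor wee1.L passed in that comparison in either fit. The clamp gene pcna.S read 9.13, 8.74 and 9.17 in control caps and 9.41, 9.33 and 9.97 in Pax3 and Zic1 caps, without overlap. Its difference was 0.56 (SE 0.27 without the block), with adjusted p = 0.0422 in limma with the block. The copy pcna.L did not pass in that comparison in either fit. Between caps with both factors and Pax3 caps, pcna.S did not pass in either fit without the drug. Under cycloheximide pcna.S was higher when Zic1 was added to Pax3, at 10.38, 10.22 and 10.89 against 9.88, 9.19 and 10.13. That difference was 0.76 (SE 0.27 without the block), with adjusted p = 0.0287 in limma with the block. In that comparison none of the 155 passed in limma, beside 0.0338% of all probe sets, with 7 at an unadjusted p under 0.05, and pcna.S and ccnd1.S passed with the block, 1.29% beside 0.744% (0.544% higher). Nothing is concluded from the 7, since the share of all probe sets at that unadjusted p is not given. The remaining call without the drug was cdc42se2l.S, named as related to the small Cdc42 effectors. It read 4.96, 5.27 and 5.79 in Pax3 caps and 2.98, 3.48 and 4.33 in control caps, without overlap. Here the difference was 1.74 (SE 0.58 without the block), with adjusted p = 0.00353 in limma with the block. The Cdc42 effector genes cdc42ep4.S and cdc42ep4.L, at -1.20 and 0.69 in the same comparison, did not pass in either fit.

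Of growth drive genes outside the name rule, mycn.L and mycn.S, which encode N-Myc, rose with Pax3 only with the block, by 1.21 and 1.16. The gene mxi1.L, a Myc antagonist, had -1.33 with Pax3 and 1.24 when Zic1 was added, both also only with the block. Both mxi1.L changes use the same Pax3 samples. These genes were named after their values were seen. The number of growth drive probe sets that passed in these comparisons is not given, so nothing is concluded about that class. Without the drug, endoderm markers moved as well. In Pax3 caps against control caps, 5 of 10 rose and 1 fell with the block (2 and 0 without it). Of all probe sets, 2.14% passed with the block in that comparison and 0.286% without it. The summed linear signal of these markers was 168.1 to 371.8 in control caps and 440.2 to 983.8 in Pax3 caps. Its part in the cyclin D values was not tested.

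Against control caps, drug-treated Pax3 caps had 4 members higher and 2 lower in limma, 3.87% beside 2.53% of all probe sets (1.28% higher and 1.24% lower), and drug-treated Pax3 and Zic1 caps had 10 higher and 3 lower, 8.39% beside 4.56% (2.21% and 2.35%). With the block these counts were 38 and 4 (27.1% beside 14.9%, split as 7.87% and 6.99%), and 37 and 8 (29.0% beside 18.9%, split as 9.15% and 9.78%). Without control sample 3 the limma totals of 6 and 13 were 1 and 8. The first was 3 without control sample 2 or drug-treated Pax3 sample 3 and 2 without drug-treated Pax3 sample 1, and the second was 7 and 6 without drug-treated Pax3 and Zic1 sample 2 and 3. The counts of all probe sets fell alongside in these fits, from 822 to between 396 and 520, and from 1483 to between 893 and 1097. The comparisons share the control samples and hold the drug's effect together with that of the factors. In Pax3 and Zic1 caps the rises included wee1.S at 1.90 (SE 0.41, adjusted p = 0.02 in limma), wee1.L at 1.32 (SE 0.29, adjusted p = 0.0203 in limma) and pcna.S at 1.49 (SE 0.27, adjusted p = 0.00755 in limma). In drug-treated Pax3 caps the same probe sets had 1.30, 0.37 and 0.72, and none of the 3 passed without the block. One of 2 probe sets of the kinase gene cdk16.L, of another role, rose by 0.53 in drug-treated Pax3 and Zic1 caps. The deepest fall was that of ccnb3.L, with -1.01 (SE 0.21) in drug-treated Pax3 caps and -1.29 (SE 0.21) in drug-treated Pax3 and Zic1 caps. Its control values, 9.35, 9.42 and 9.32, exceeded those of all 12 injected samples.

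Xenopus laevis carries 2 copies of many genes, .L and .S, from an ancient genome duplication. Both copies were measured for 32 of the names. With each copy taken at its brightest probe set, their cycloheximide changes had the same sign in 22. With the block both copies passed in the same direction in 12, 1 copy only in 10 and neither in 10, beside 29.1% of all probe sets. Such counts were not made for the copies of other genes, so nothing is concluded from them. Copies that moved together included cdk1 (-0.69 and -0.90), cdc45 (1.19 and 1.32), cdc6 (1.20 and 1.50), ccna2 (0.46 and 0.62) and mcm4 (0.52 and 0.52). Those with unlike signs had small changes, none past 0.39 in size, such as aurka (-0.38 and 0.14), cdc23 (-0.30 and 0.10) and ccne1 (-0.22 and 0.26). The dimmer probe set of ccne1.L had the sign of ccne1.S.

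The cell cycle genes differed by replicate number about as much as probe sets at large. The replicate number accounted for a median of 35.6% of the variance of a member over the 15 samples, beside 37.1% for all probe sets, and the group for 34.2%, beside 29.2%. In 58 of the 155, or 37.4%, the number's share was over 50%, near the 35.7% of all probe sets. The cyclin gene ccnb1.S was measured at 9.65, 10.04, 9.84, 10.49 and 10.75 in the 5 samples of replicate number 1, from control to drug-treated Pax3 and Zic1 caps, and at 10.01, 9.87, 9.67, 10.09 and 9.76 in those of number 2. In those of number 3 it read 7.38, 7.60, 6.98, 8.83 and 8.72, below all the others, and the number's share was 80.4%.

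The A1 cyclin gene ccna1.L, which in frogs is known as an embryonic cyclin, had its highest value of each group in number 1 (9.47 to 10.37) and its lowest in number 3 (6.81 to 8.62), with a share of 79.3%, and ccna1.S was also highest in number 1 in every group, with 78.4%. The helicase-related mcm9.L was high in number 1, at 6.69 to 7.25, against 5.27 to 6.25 in the others. One of 2 probe sets of cdk9.L, a kinase of transcription elongation, read 6.58 to 7.05 in number 2 and 1.87 to 3.01 in the others, a share of 98.2%. It is the probe set that rose with the drug only with the block. The other probe set of the gene lay between 9.91 and 10.60. The labels do not say what the numbers stand for. The lowest mean of the 3 numbers was that of number 3 in 77 of the 155 members and in 9599 of the 32539 probe sets.

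**Figure D5:**
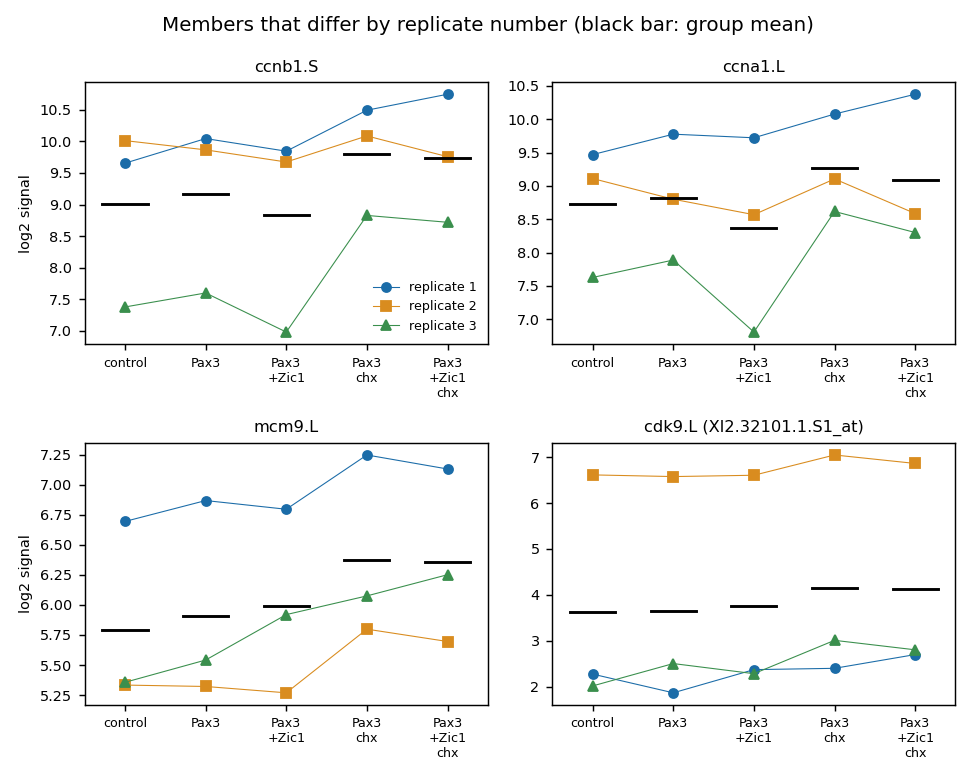
Log2 signal (vertical axes, each with its own range) of ccnb1.S, ccna1.L, mcm9.L and 1 probe set of cdk9.L in each sample, by group (horizontal axis), with replicate numbers as separate symbols joined by lines and group means as bars. Number 3 is lowest in every group for both cyclins, number 1 highest for mcm9.L and number 2 highest for cdk9.L.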

How the data were processed

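Affymetrix signals of 16 arrays from 15 biological samples were used. The values are log2 expression per probe set, as the authors deposited them, a scale read from the values; the submitters' processing notes name R 2.14.2, and how backgrounds were corrected and arrays normalized and summarised was not stated there. The 96 control probe sets were left out and no filter on low values was set, so all 155 members were tested. Arrays 2.1 and 2.2 of Pax3 and Zic1 caps are 1 biological sample and were averaged. The number of arrays limits the precision.

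Symbols came from the platform annotation, which gave 1 symbol for 15495 probe sets, several for 279 and none for 16765; the RefSeq table of assembly Xenopus_laevis_v10.1 held 153 of the 155 member probe sets and changed 0 symbols. The members and gene lists were chosen with earlier results of these data known.

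Means of the 5 groups were fitted in one limma 3.58.1 model in R 4.3.3 (lmFit and eBayes, 10 residual degrees of freedom), two-sided, with Benjamini-Hochberg adjustment over 32539 probe sets in each of 10 comparisons. This fit was first run on simulated data with independent samples. That run held no likeness of same-numbered samples and did not use the block, so it did not test either. The labels number the samples by biological replicate, with no word on what a number shares. With group means removed, samples of one number correlated at 0.428 to 0.864 and those of unlike numbers at no more than -0.0956. Removing group means itself lowers the latter, so the pairing rests on the former. The numbers were taken as pairs, and the fit with the number as a block is printed too. The share of variance by number or group is a sum of squares over the total for each probe set. Members to name were those that passed in limma, the 12 with the largest change of those that passed with the block in each comparison, the 5 largest where fewer than 5 passed, core cell cycle genes whatever their values, and the other probe sets and copies of these. Probe sets outside that rule were named after their values were seen, among them the genes of the pathway lists and markers. Figures were drawn with matplotlib 3.10.9. Alternatives were the block, either array of the repeated sample, quantile normalization, median centring, eBayes with trend or robust, the brighter probe sets only, the groups of a comparison only, 1 probe set per gene, and each sample left out.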

Additional observations from a re-analysis of the deposited data

How the results depend on the processing

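None of the 109 changes of named members reversed with the block, quantile normalization, median centring or a sample left out. With each number once in every group, the block leaves the changes themselves as they were, so it could not reverse them. The other alternatives were compared by counts of members only, which cannot show a reversal. The replicate block moved 9 of 10 counts of members that passed, to 3 for Pax3 against control, 2 for Pax3 and Zic1 against control, 42 and 45 for the same caps with cycloheximide, 2 and 2 for Zic1 added without and with the drug, 34 and 44 for the drug in Pax3 and in Pax3 and Zic1 caps, and 79 for the drug's mean; the interaction kept 0. The shares of all probe sets with the block stand beside these counts in the results above. The block without the third Pax3 and Zic1 sample gave 5, 1, 57, 56, 3, 3, 51, 32 and 80 in the same order. Of all probe sets, 1028, 977, 6915, 8326, 263, 415, 5660, 3859 and 10172 passed in that fit, again in the same order. Quantile normalization and eBayes with trend each gave 1 for Zic1 added. Of all probe sets, 11 and 10 then passed for Zic1 added without the drug, and 8 and 12 with it. Fitted on the groups of the comparison only, with fewer samples to estimate the spread, the counts were 1 and 6 for the drug-treated caps against control and 0 and 1 for the drug in each kind of caps. Of all probe sets, 467 and 617, and 0 and 20, passed in those fits. Leaving out 1 sample at a time gave 12 to 30 for the drug's mean (lowest without the third Pax3 sample, highest without the first Pax3 and Zic1 sample), 1 to 5 and 4 to 12 for the drug in each kind of caps, 1 to 7 and 6 to 14 for drug-treated caps against control, and 0 to 0 for the other 5. Of all probe sets, 1363 to 3357 passed for the drug's mean, and 89 to 363 and 201 to 1308 in each kind of caps. For drug-treated caps against control these counts were 396 to 942 and 893 to 1632. For Pax3 and for both factors against control they were 17 to 122 and 36 to 376. For Zic1 added without and with the drug they were 0 to 68 and 4 to 47, and for the interaction 0. Of 109 changes of named members, the block moved 39 past the threshold and took none below it. With 3 samples a group and no drug-only caps, the drug's effect and its interplay with Pax3 cannot be told apart.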
